A study of Homo sapiens with 2 samples.

Results

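Doxorubicin is an anthracycline that intercalates into DNA and traps topoisomerase II on it, so that cells acquire breaks as they replicate and divide. Tumor cells that survive repeated exposure are known for a few recurring changes, among them higher levels of ATP-binding cassette pumps such as P-glycoprotein (the product of ABCB1), which carries anthracyclines and taxanes out of the cell, and shifts along the epithelial to mesenchymal and the basal to luminal axes. Triple-negative breast cancer (TNBC) lacks the hormone receptors and the amplified HER2 receptor that targeted drugs use, which leaves chemotherapy as its main systemic treatment, and cells grown in three-dimensional culture meet gradients of oxygen, nutrients and drug that a monolayer does not have.

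The comparison described here is that of doxorubicin-resistant with treatment-naive SUM159 cells, both taken from spheroids. SUM159 is an established TNBC line with mesenchymal features. The cells were profiled with the BD Rhapsody Onco-BC panel, a targeted single-cell assay that reads a fixed set of selected transcripts and counts each molecule by its unique molecular identifier (UMI). The series holds 2 pooled cartridges, 1 of attached cells and 1 of spheroids, each with 3 tagged populations (doxorubicin-resistant, paclitaxel-resistant and treatment-naive), and the resistant lines had been made by long exposure of attached cells to rising drug doses. The doxorubicin-resistant spheroid population carried sample tag 8 and the treatment-naive one sample tag 4. The tag labels call the spheroid population doxorubicin treated, whereas the series design calls it resistant, and the sources used here do not say whether drug was present in the profiled wells. In the study's methods, spheroids grew in Matrigel, a basement membrane extract, for about a week or longer before further treatment and analysis, and the resistant cells had alternated between drug and drug-free medium. All cells are of 1 line with a wild-type genotype label. Each population is 1 tagged part of 1 pooled sample, so no p-value was computed. The difference between populations has no replicate check.

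Cells with at least 1000 UMIs were kept, which gave 2558 of 3776 barcodes for doxorubicin-resistant spheroids and 2442 of 4362 for treatment-naive spheroids, out of 25396 kept of 30122 barcodes in the whole series. The kept cells held 10167156 UMIs (median 3580.5 UMIs and 131 genes per cell) in doxorubicin-resistant spheroids and 10796029 UMIs (median 3712 UMIs and 125 genes per cell) in treatment-naive spheroids. No barcode occurred both in doxorubicin-resistant and in another spheroid population, and 93 doxorubicin-resistant and 89 treatment-naive barcodes recurred in the attached cartridge, which was a separate run. The label of a TNBC carcinoma line was checked against its markers: vimentin was found in every kept cell of both populations, and ESR1, the estrogen receptor, had 37 UMIs in doxorubicin-resistant and 6 UMIs in treatment-naive cells.

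UMIs were summed per gene over the kept cells and scaled to counts per 1000000 UMIs of the population (CPM). A gene was called higher or lower when the CPM differed by at least 2-fold and the population with the higher level had at least 50 UMIs. Each fold is given with its exact 95% interval, which covers counting error only. Of 259 genes with at least 50 UMIs in either population, 44 (17.0%) were higher and 47 (18.1%) were lower in doxorubicin-resistant than in treatment-naive spheroids, and 168 lay within 2-fold. The difference was at least 10-fold for 12 of the higher and 14 of the lower genes. The median gene had a log2 ratio of 0.20, with 148 genes above and 111 below equality. Under a size factor that set this median to 0.00, 36 genes were higher and 55 lower.

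**Figure D1:**
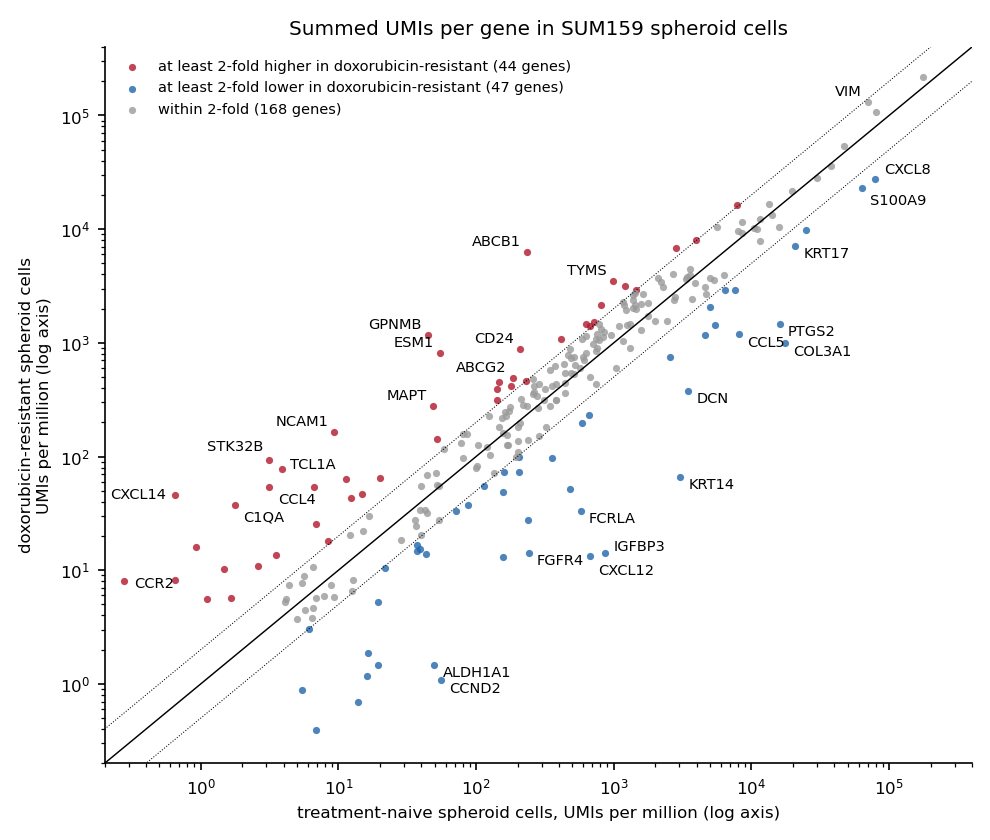
Summed UMIs, as CPM, of 259 measured genes in doxorubicin-resistant (vertical, log axis) against treatment-naive spheroid cells (horizontal, log axis), 1 point per gene, with equality as a solid and 2-fold as dotted lines. ABCB1 (6270.0 against 234 CPM) and GPNMB (1172 against 44.7 CPM) lie far above the lines, and KRT14 (66.6 against 3032 CPM), COL3A1 (988 against 17409 CPM) and PTGS2 (1475 against 16004 CPM) far below.

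Both drug efflux pumps of the panel were higher in doxorubicin-resistant spheroids. ABCB1 (chr7:87503017-87713295, hg38), which encodes P-glycoprotein, had 63748 UMIs (6270.0 CPM) in doxorubicin-resistant and 2523 UMIs (234 CPM) in treatment-naive cells, a 26.8-fold difference (25.8 to 27.9). At least 1 ABCB1 molecule was found in 80.6% of doxorubicin-resistant cells (79.0% to 82.1%, exact 95% interval) and 20.6% of treatment-naive cells (19.0% to 22.2%), and no such interval of a measured gene spanned more than 4.01 percentage points in either population. With every cell thinned to 1000 UMIs, these shares were 67.9% and 8.52%. ABCG2, a second multidrug transporter that exports anthracyclines, had 489.7 CPM in doxorubicin-resistant and 185 CPM in treatment-naive cells (2.64-fold higher, 2.51 to 2.79). The size of the ABCB1 fold depended on which cells entered it: it was 73.3 among cells whose remaining profile matched their own population best, 50.6 without the 1% of cells that held most ABCB1 UMIs, and 16.4 among cells with under 2000 UMIs. For folds, and for counts and medians taken from them, the match here and below left out only the gene in question. It removed cells that resembled another population. Larger folds among matched cells can therefore follow from the selection itself.

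ABCB1 was spread unevenly in both populations. Of the doxorubicin-resistant cells, 1383 (54.1%) had more than 5 ABCB1 UMIs and together held 97.3% of the population's ABCB1 UMIs, while 497 cells (19.4%) had none. Of the treatment-naive cells, 76 (3.11%) had more than 5 ABCB1 UMIs and held 77.0% of the ABCB1 UMIs of that population, and 1940 had none. Doxorubicin-resistant cells without an ABCB1 UMI were shallower (median 2753 UMIs, against 4205 in those with more than 5). Within doxorubicin-resistant spheroids, GPNMB stood at 1256 CPM in the cells without ABCB1 and at 1239.8 CPM in those with more than 5 UMIs, NCAM1 at 166 and 167 CPM, and COL3A1 at 990.3 and 944 CPM. Other genes differed more between these groups: the cells without ABCB1 had less ABCG2 (419 against 552 CPM), PTGS2 (1182 against 1638 CPM) and KRT14 (21.0 against 41.4 CPM) and more CD24 (1035 against 796 CPM), CXCL12 (21.0 against 11.9 CPM) and IGFBP3 (10.5 against 4.97 CPM). In the 678 cells with 1 to 5 ABCB1 UMIs, KRT14 (166 CPM) and IGFBP3 (41.5 CPM) were above both groups and ABCG2 (372 CPM) was below both. These 678 cells lay between both groups in PTGS2 (1240 CPM), CD24 (987 CPM) and CXCL12 (12.1 CPM). The differences in KRT14, IGFBP3 and ABCG2 thus did not follow the order of ABCB1, whereas those in PTGS2, CD24 and CXCL12 did. KRT14, CXCL12 and IGFBP3 were at low levels in every doxorubicin-resistant group. Apart from ABCB1 itself, the values stayed on the doxorubicin-resistant side of the level of the whole treatment-naive spheroid population. In treatment-naive spheroids, the 76 cells with more than 5 ABCB1 UMIs had GPNMB at 651 CPM and NCAM1 at 133 CPM, against 23.6 and 3.69 CPM in the cells without ABCB1. Those 76 cells also had less PTGS2 (5621 against 16341 CPM) and less S100A9 (22604 against 64028 CPM) than the treatment-naive cells without ABCB1. Their KRT14 was close to that of the cells without ABCB1 (2847 against 2881 CPM), and their IGFBP3 (448 against 907 CPM) and CXCL12 (467 against 703 CPM) remained far above the doxorubicin-resistant levels.

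**Figure D2:**
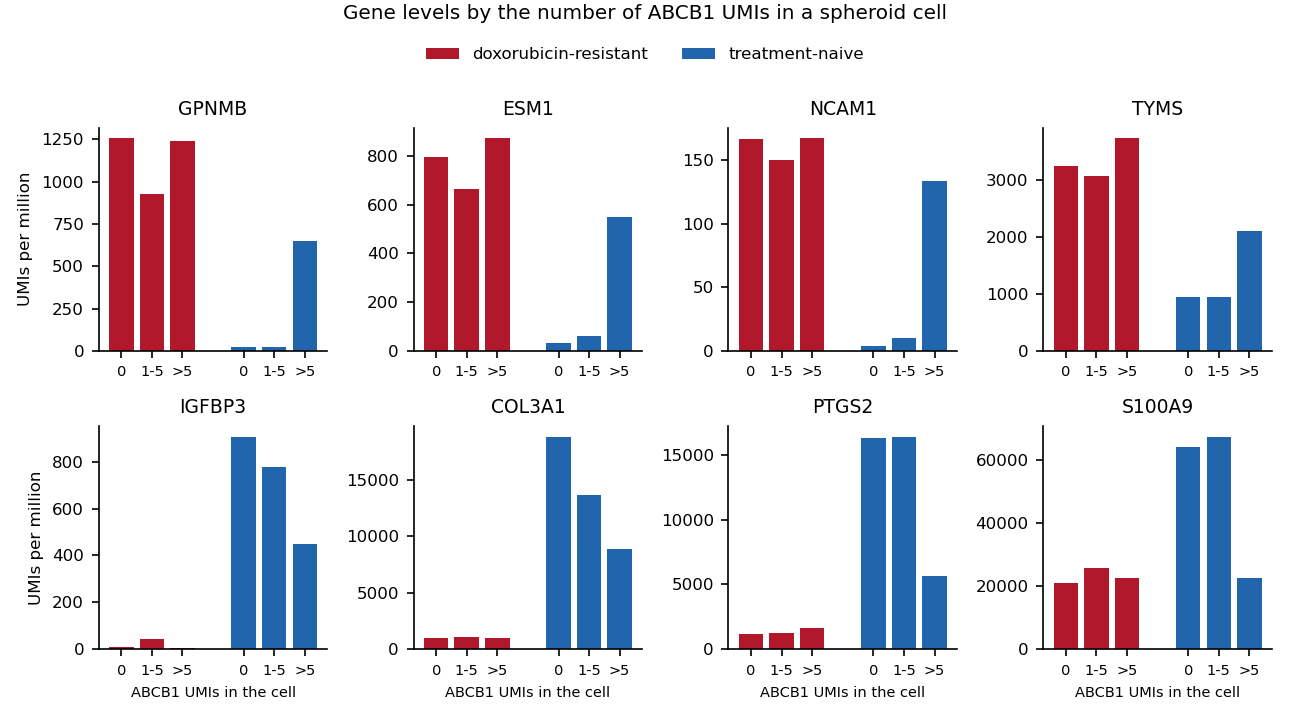
Levels of 8 genes in CPM (bars, from 0) in doxorubicin-resistant (left, red) and treatment-naive (right, blue) spheroid cells grouped by the number of ABCB1 UMIs in the cell. GPNMB is between 930 and 1256 CPM in every doxorubicin-resistant group, and among treatment-naive cells it reaches 651 CPM only in the group with more than 5 ABCB1 UMIs.

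Cells were also assigned to the spheroid population whose summed profile, with both pumps left out, gave them the highest likelihood. Of the doxorubicin-resistant cells, 2147 (83.9%) matched their own population best, 290 (11.3%) the paclitaxel-resistant one and 121 (4.73%) the treatment-naive one. The 121 cells still had 4196 CPM of ABCB1 and 1332 CPM of GPNMB, and their IGFBP3 was at 183 CPM, against 5.44 CPM in the 2147 cells. GPNMB and IGFBP3 entered the match and ABCB1 did not. Of the treatment-naive cells, 238 (9.75%) matched the doxorubicin-resistant profile best, and these had 1474 CPM of ABCB1 and 280 CPM of GPNMB, against 88.5 CPM and 22.0 CPM in the 1930 cells (79.0%) that matched their own population. The 238 cells were shallower (median 2337.5 UMIs, against 3999.5), which leaves fewer molecules for the match. The part of mislabelled or mixed cells in these numbers was not tested.

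Among the genes with the largest positive differences, several were found in a wide share of the resistant cells. GPNMB, a transmembrane glycoprotein of melanosomes and lysosomes, was 26.2-fold higher (23.9 to 28.7) and was detected in 57.1% of doxorubicin-resistant and 5.32% of treatment-naive cells. As for ABCB1, the size of this fold depended on the cells: it was 57.8 among cells that matched their own population best, 83.5 without the 1% of cells that held most GPNMB UMIs and 12.1 among cells with under 2000 UMIs. ESM1, a secreted proteoglycan first described in endothelium, had 812 CPM in doxorubicin-resistant and 54.9 CPM in treatment-naive cells (14.8-fold higher, 13.6 to 16.1), with shares of 58.6% and 10.1%. NCAM1, a neural cell adhesion molecule of the immunoglobulin family, was 17.4-fold higher (14.2 to 21.5; 163 against 9.36 CPM) and was found in 41.4% against 3.15% of cells. MAPT, which encodes the microtubule-binding protein tau, was 5.73-fold higher (5.22 to 6.30; 279 against 48.7 CPM), and STK32B, a serine/threonine kinase, 29.7-fold higher (21.1 to 43.2; 93.6 against 3.15 CPM). For the cells that matched their own population, the folds of ESM1 and NCAM1 were 23.7 and 35.9, and for cells with under 2000 UMIs they were 7.91 and 8.35. These 5 genes differed in the number of cells that carried them as well as in the summed level.

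Other genes of this group had few molecules. CXCL14, a chemokine of epithelial tissues, had 470 UMIs in doxorubicin-resistant and 7 UMIs in treatment-naive cells (71.3-fold higher, 34.3 to 178), and was detected in 7.23% against 0.287% of cells. TCL1A, an AKT coactivator normally of early B cells, had 77.1 against 3.89 CPM (19.8-fold higher, 14.5 to 27.7). CCR2, a receptor for monocyte chemokines, had 81 against 3 UMIs, and its ratio of 28.7 is known only to between 9.47 and 142. For 4 genes a handful of cells set the value. CCL4, a macrophage inflammatory chemokine, had 549 against 34 UMIs (17.1-fold higher, 12.1 to 25.01), but 515 of the 549 came from 5 cells. FCGR3A, an Fc receptor of natural killer cells and macrophages, had 162 against 10 UMIs (17.2-fold higher), of which 116 lay in 1 cell. GZMA, a granzyme of cytotoxic lymphocytes, had 104 against 16 UMIs and 97.1% of the 104 lay in the top 1% of cells, and CDKN2A, the p16 cell cycle inhibitor, had 111 against 28 UMIs, all of them in under 1% of cells. Without the 1% of cells that held most of its UMIs, each of these 4 genes was left with at most 3 UMIs in either population. FCGR3A, CCL4 and CCL3 have near-identical copies in the genome, and the counts may include reads of those copies.

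**Figure D3:**
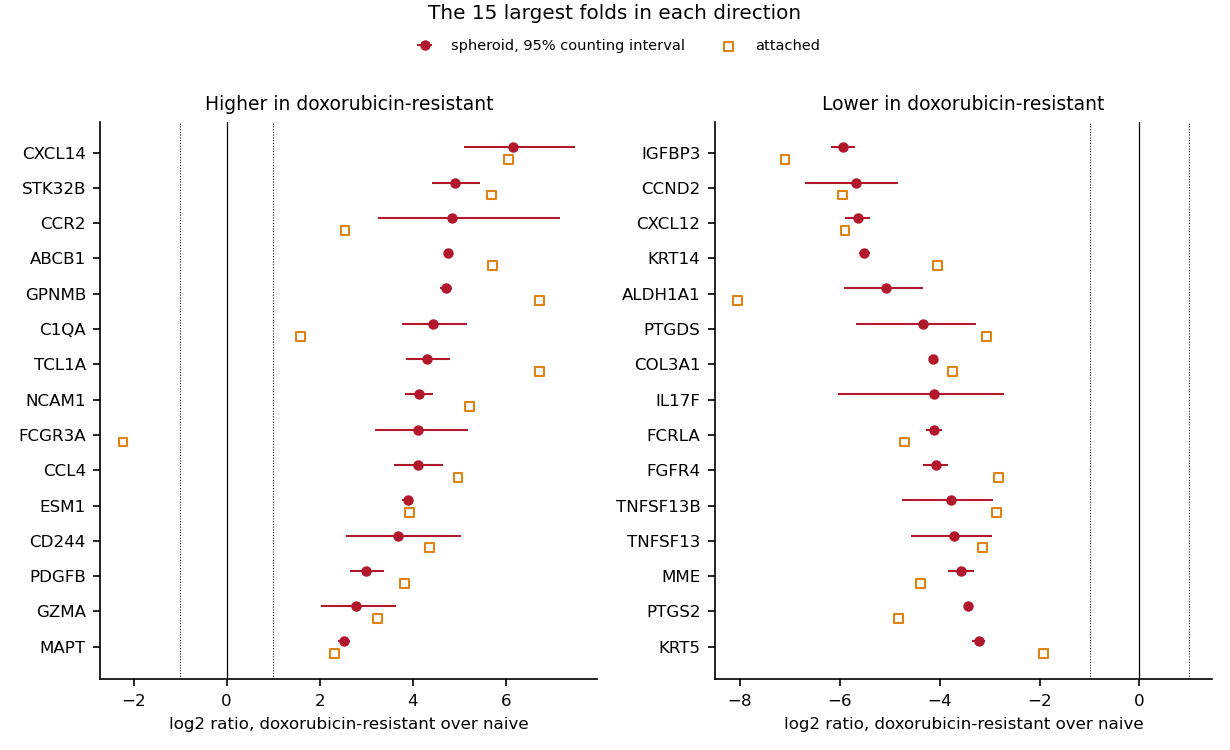
Log2 ratio, doxorubicin-resistant over treatment-naive, of the 15 genes with the largest folds in each direction: filled points are spheroid cells with 95% counting intervals, open squares the same comparison in attached cells, dotted lines 2-fold. FCGR3A is the gene whose attached value lies on the other side of the 2-fold line (4.67-fold lower); CCR2, C1QA, GZMA and IL17F had under 50 UMIs in attached cells.

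Genes of cell division were higher together. The panel measured 17 genes of G2/M and mitosis, and all 17 had a ratio above 1, with a median log2 ratio of 0.89 against 0.20 for all genes. Over all 259 measured genes, 148 had a ratio above 1, 17.0% were higher and 18.1% lower. By the size rule 6 of the 17 were higher and none was lower: CCNA1, UBE2C, CCNB1, NDC80, CEP55 and PTTG1. This count depended on the processing: it was 3 with trimmed mean of M-values and with median-of-ratios factors (without NDC80, CEP55 and PTTG1). With unscaled totals it was 4, and without GAPDH in the totals 7. It was 2 among cells with under 2000 UMIs and 14 among cells that matched their own population best, with none lower in any of these. The match used the other G2/M genes, so the 14 can follow from how the cells were chosen. The summed level of the list was 37292 CPM in doxorubicin-resistant and 19068 CPM in treatment-naive cells. CCNB1, the cyclin that activates CDK1 at entry into mitosis, had 6862 against 2818 CPM (2.44-fold higher, 2.40 to 2.47). UBE2C, the ubiquitin-conjugating enzyme of the anaphase-promoting complex, had 3143 against 1204 CPM (2.61-fold higher, 2.56 to 2.67). CCNA1, the cyclin A otherwise found mainly in testis, had the largest ratio (5.586, 4.6 to 6.83) at a low level of 63.6 against 11.4 CPM. PTTG1, or securin, which restrains separase until anaphase, stood on the limit (2.01, 1.99 to 2.04). The other 11 were within 2-fold, between BIRC5, the survivin gene (1.39, 1.37 to 1.42), and ANLN, the cytokinetic scaffold anillin (1.93, 1.89 to 1.98), and MKI67, the proliferation antigen, was at 1.84 (1.72 to 1.97). At 1000 UMIs per cell, CCNB1 was found in 70.9% against 43.2% of cells and UBE2C in 49.2% against 26.3%.

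The upstream sequence of CCNB1 is shown because mitotic genes are commonly controlled through short elements near their start sites, the CCAAT box bound by NF-Y and the cell cycle homology region (CHR) bound by the MuvB complex. The window is the 250 bases before the start site on the plus strand, from RefSeq (GRCh38.p14, chr5:69166900-69167149), with CCAAT in capitals.
CCNB1: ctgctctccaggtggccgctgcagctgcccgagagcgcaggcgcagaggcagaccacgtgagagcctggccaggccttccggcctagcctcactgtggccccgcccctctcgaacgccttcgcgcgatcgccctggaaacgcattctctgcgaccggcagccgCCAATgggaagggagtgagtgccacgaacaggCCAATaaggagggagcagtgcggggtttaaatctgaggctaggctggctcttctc
This window held 2 CCAAT boxes and no TTTGAA, the only sequence searched for as a CHR, whereas those of CCNA1 and NDC80 held neither. Other sequences and the bases past the start site were not searched, so absence of a CHR was not shown. Searched on both strands in the same window, CCAAT occurred in 9 and TTTGAA in 6 of the 15 promoters of the G2/M list that had a RefSeq entry, and both occurred in 5. Over 27305 promoters, the shares were 33.0%, 13.6% and 4.85%. These are matches of letters, and binding was not measured.

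Of 15 measured genes of G1/S and DNA replication, 4 were higher, 1 was lower and 14 had a ratio above 1 (median log2 ratio 0.76). Over all measured genes, 17.0% were higher and 18.1% lower. TYMS, thymidylate synthase, the enzyme that makes the thymidine nucleotide for DNA, was the highest, with 3509 against 981 CPM (3.58-fold, 3.50 to 3.66) and a thinned share of 74.9% against 33.7% of cells. CDCA7, a MYC-responsive cell cycle gene (3.09-fold), MYBL2, a transcription factor of proliferating cells (2.64-fold), and MCM6, a subunit of the replicative helicase (2.09-fold), were the others. RRM2, the small subunit of ribonucleotide reductase, and CCND1, cyclin D1, lay just inside the limit at 1.87 (1.82 to 1.92) and 1.85 (1.83 to 1.87). CCND2, cyclin D2, went the other way: it had 11 UMIs in doxorubicin-resistant and 599 UMIs in treatment-naive cells (51.3-fold lower, 28.5 to 103). Of the CDK inhibitors, CDKN1A, which encodes p21, was within 2-fold at 3922 against 6335 CPM (1.62-fold lower, 1.596 to 1.636), and CDKN1C had only 57 against 45 UMIs.

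Of 5 DNA repair genes, BRCA1, of homologous recombination, was higher (466 against 229 CPM, 2.04-fold, 1.94 to 2.14), and UBE2T, the ubiquitin-conjugating enzyme of the Fanconi anemia pathway, was at 1.83. Of 10 regulators of apoptosis, none was higher and only CASP5, an inflammatory caspase, was lower, with 31 against 66 UMIs and an interval that includes 2-fold. For comparison with these short lists, 17.0% of all measured genes were higher and 18.1% lower. BAX, the pore-forming effector, was at 1.58 (1.55 to 1.62). Apart from TYMS and ALDH1A1, the enzymes of detoxification and nucleotide metabolism lay within 2-fold, GSTP1, the glutathione transferase, at 1.10 (1.09 to 1.11) and HPRT1, of purine salvage, at 1.92 (1.88 to 1.96). ALDH1A1, a retinaldehyde-oxidizing enzyme and stem cell marker, had 15 against 537 UMIs (33.7-fold lower, 20.3 to 60.7). ALCAM, another surface marker of that list, was higher (389 against 142 CPM, 2.74-fold), and CD44 was at 1.20 (1.19 to 1.21).

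**Figure D4:**
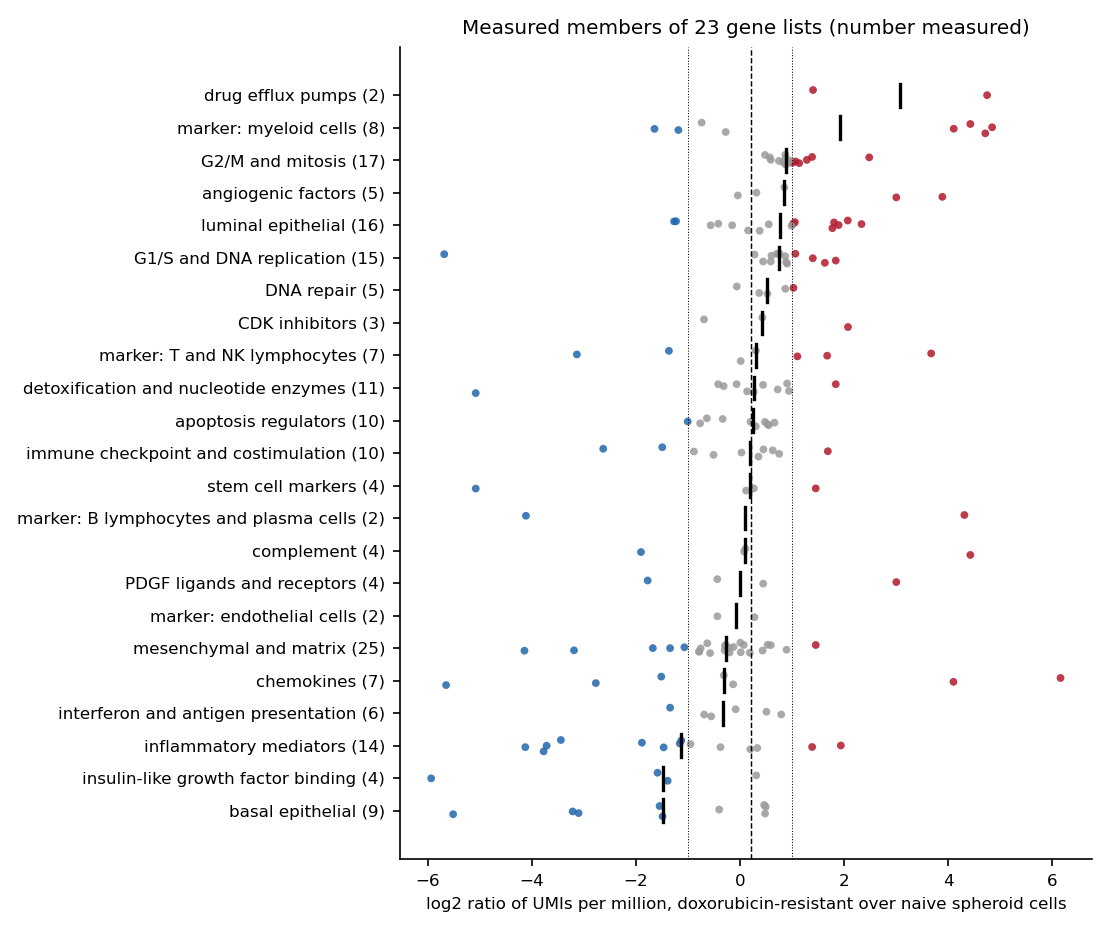
Log2 ratios (doxorubicin-resistant over treatment-naive spheroids) of the measured members of 23 gene lists, 1 point per gene, red for at least 2-fold higher, blue for at least 2-fold lower, with the list median as a bar, the median of all genes as a dashed and 2-fold as dotted lines. All 17 G2/M genes lie to the right of 0, whereas the basal epithelial and inflammatory lists have medians of −1.49 and −1.14.

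Epithelial genes divided by lineage. Of 9 measured basal genes, 5 were lower and none was higher in doxorubicin-resistant spheroids (median log2 ratio −1.49), against 18.1% and 17.0% of all measured genes. KRT14, a keratin of basal and myoepithelial cells, had 66.6 CPM in doxorubicin-resistant and 3032 CPM in treatment-naive cells (45.5-fold lower, 42.2 to 49.2), and was found in 5.94% against 33.7% of cells. KRT5, its pairing partner, was 9.28-fold lower (8.48 to 10.2), although 67.7% of its treatment-naive UMIs lay in the top 1% of cells. CDH3, P-cadherin, was 8.57-fold lower (7.58 to 9.73), and TP73, a p53 family transcription factor, 2.80-fold lower (2.58 to 3.05). KRT17 was 2.92-fold lower (2.89 to 2.94; 7113 against 20741 CPM) although nearly every cell of both populations carried it, so that its level per cell and not the share of cells differed. ITGA6, SFN and FOXC1 were the exceptions, at 1.38, 1.40 and 1.41.

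Of 16 measured luminal genes, 7 were higher and 2 lower (median log2 ratio 0.77), against 17.0% and 18.1% of all measured genes. The number higher was 5 with trimmed mean of M-values, median-of-ratios factors or unscaled totals, and 8 without GAPDH in the totals. CD24, a mucin-like surface protein, had 878 CPM in doxorubicin-resistant and 209 CPM in treatment-naive cells (4.20-fold higher, 4.01 to 4.40), and was detected in 69.0% against 20.8% of cells. KRT18 and KRT8, the paired keratins of simple epithelia, were 2.08-fold (2.06 to 2.09) and 2.03-fold (1.99 to 2.07) higher. The luminal transcription factors FOXA1 (25.5 against 6.85 CPM, 3.72-fold) and MYB (43.1 against 12.3 CPM, 3.50-fold) were higher at low levels. EPCAM, an epithelial adhesion molecule, and ERBB3, a receptor of the HER family, rested on 57 against 12 and 58 against 18 UMIs. CA12, a carbonic anhydrase (2064 against 4966 CPM), and MLPH, melanophilin, were 2.41-fold and 2.34-fold lower.

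The mesenchymal and matrix genes did not move as a group: of 25 measured, 1 was higher, 5 were lower and 19 lay within 2-fold (median log2 ratio −0.27). Over all measured genes, 17.0% were higher and 18.1% lower. COL3A1 (chr2:188974373-189012746), a fibrillar collagen chain, had 10043 UMIs in doxorubicin-resistant and 187952 UMIs in treatment-naive cells (17.6-fold lower, 17.27 to 17.98). DCN, the collagen-binding proteoglycan decorin, was 9.11-fold lower (8.82 to 9.42) and was found in 21.0% against 69.4% of cells. TGFB3, S100A4 and FAP were 3.19-fold, 2.54-fold and 2.10-fold lower. CDH6, a cadherin of kidney and neural tissue, was the 1 higher gene (142 against 51.9 CPM, 2.74-fold). VIM, the intermediate filament of mesenchymal cells, took 130531 CPM against 70254 CPM, just under the limit at 1.86 (1.85 to 1.86), and FN1, fibronectin, was at 1.14. COL1A1, the chain of type I collagen, was within 2-fold at 1.72-fold lower (1.69 to 1.74), far from the difference of COL3A1.

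All 3 insulin-like growth factor binding proteins that were measured were lower. IGFBP3 (chr7:45912245-45921272), which binds circulating insulin-like growth factors, had the largest difference of any lower gene, with 14.2 CPM in doxorubicin-resistant and 864 CPM in treatment-naive cells (61.0-fold lower, 51.7 to 72.4), and was found in 2.23% against 34.6% of cells. The fold was 161 among cells that matched their own population best and 208 without the 1% of cells that held most IGFBP3 UMIs. IGFBP5 and IGFBP7 were 3.00-fold (2.85 to 3.15) and 2.62-fold (2.58 to 2.65) lower, whereas the receptor IGF1R was at 1.24. In the platelet-derived growth factor family, the ligand PDGFB was 8.01-fold higher (6.25 to 10.4; 53.4 against 6.67 CPM) and the receptor PDGFRB 3.42-fold lower (3.33 to 3.51; 746 against 2551 CPM). PDGFA and PDGFRA lay within 2-fold. VEGFA, the main angiogenic factor, did not reach the limit at 10175 against 10476 CPM (1.03-fold lower), and HIF1A, the hypoxia-inducible factor subunit, was at 1.25. FGFR4, a fibroblast growth factor receptor, was 16.9-fold lower (14.3 to 20.1; 14.3 against 241 CPM), and SPHK1, the kinase that makes sphingosine 1-phosphate, was 2.35-fold higher (2.28 to 2.42; 1466 against 625 CPM).

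Inflammatory mediators were mostly lower. Of 14 measured mediators, 8 were lower and 2 higher (median log2 ratio −1.14), against 18.1% and 17.0% of all measured genes. With cells thinned to 1000 UMIs, 10 were measured, of which 4 were lower and 1 was higher. PTGS2, the inducible cyclooxygenase, had 1475 CPM in doxorubicin-resistant and 16004 CPM in treatment-naive cells (10.9-fold lower, 10.7 to 11.0), with thinned shares of 41.3% and 85.6% of cells. IL1B, interleukin 1 beta, was 2.23-fold lower (2.199 to 2.260), and the calgranulins S100A9 and S100A8 were 2.76-fold (2.75 to 2.77) and 3.69-fold (3.44 to 3.96) lower. TNFSF13 and TNFSF13B, B cell survival ligands, were more than 10-fold lower on 15 against 209 and 12 against 174 UMIs. TNF, the tumor necrosis factor gene, was 2.18-fold lower (2.00 to 2.38) and 1.72-fold lower without the 1% of cells that held most of its UMIs, and IL17F rested on 74 UMIs of 1 treatment-naive cell. IL18, a cytokine of the interleukin 1 family, was higher (1073 against 411 CPM, 2.61-fold), as was IL1RN, the interleukin 1 receptor antagonist, on 137 against 38 UMIs. IL6 was within 2-fold at 4493 against 3570.2 CPM (1.26, 1.24 to 1.28).

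Of 7 chemokines, 2 were higher and 3 lower, against 17.0% and 18.1% of all measured genes. CXCL8, a neutrophil attractant and the third most abundant treatment-naive transcript, had 27888 against 79543 CPM (2.85-fold lower, 2.84 to 2.86), and both populations carried it in over 99% of cells. CXCL12, the ligand of CXCR4, had 13.4 against 669 CPM (50.03-fold lower, 42.2 to 59.7), and was found in 3.13% against 50.5% of cells. CCL5, a T cell attractant, had 1184 against 8074 CPM (6.82-fold lower, 6.69 to 6.95), and 73.9% of the doxorubicin-resistant CCL5 UMIs lay in the top 1% of cells, against 32.8% in treatment-naive cells. CCL3 differed little at 102 against 127 CPM (1.24-fold lower, 1.14 to 1.35).

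Of 6 measured genes of interferon response and antigen presentation, only CD74, the invariant chain of class II, passed the size rule (149 against 401 UMIs, 2.53-fold lower). The CD74 call did not hold with cells thinned to 1000 UMIs (ratio 0.541), with a mean over cells (0.583) or among cells of 2000 to under 4000 UMIs (0.867), the ratio was 1.45 in cells with under 2000 UMIs, and it was 0.182 in cells of at least 4000 UMIs. Of 10 checkpoint and costimulatory genes, ICOSLG, the ligand of ICOS, was higher (64.4 against 20.0 CPM, 3.22-fold, 2.76 to 3.77), and CD86 and C10orf54 (VISTA) were lower. Among all measured genes, 17.0% were higher and 18.1% lower, so the counts of these 2 lists were near those shares. CD274, which encodes PD-L1, was at 1.55 (1.38 to 1.74; 698 against 479 UMIs). In complement, C1S, the classical pathway protease, was 3.74-fold lower (3.67 to 3.81; 1444 against 5397 CPM), and C1QA was 21.5-fold higher (13.6 to 36.0) on 384 against 19 UMIs.

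Genes that define other cell types were read in both populations, although the cultures held 1 cell line. Of 15 T and natural killer cell markers in the files, 7 were measured, of which CD3D, LCK and CD244 were higher and TRAC and ZAP70 lower. The shares over all measured genes were 17.0% higher and 18.1% lower. The summed level of the list was 333 CPM in doxorubicin-resistant and 287 CPM in treatment-naive cells. The defining marker CD8A was at 0 in both, and PTPRC, the pan-leukocyte antigen, had 17 against 5 UMIs. The B lineage list summed to 115 against 582 CPM, of which FCRLA, an intracellular Fc receptor-like protein, was 17.3-fold lower (33.2 against 574 CPM; 7.39% against 44.8% of cells). The myeloid list summed to 1585 against 519 CPM, and GPNMB alone accounted for 1172 and 44.7 CPM of this. The myeloid median log2 ratio of 1.91 was −0.52 among cells that matched their own population best. The endothelial list summed to 665 against 616 CPM. Single-cell barcodes can carry free RNA, and no population in the cartridge is known to lack a given panel gene, so its part in low shares was not tested.

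In this paragraph, shares of cells were compared at 1000 UMIs per cell, since the populations differed in depth. Shares given elsewhere without mention of thinning are at full depth. All 44 genes that were higher were also found in a larger share of doxorubicin-resistant than of treatment-naive cells, and 46 of the 47 lower genes in a smaller share. The shares come from the same molecules as the folds, so this is not a separate check of the direction. Of the 44 genes, 10 were in more than 50% of doxorubicin-resistant cells at this depth (ABCB1, CCNB1, IL18, KRT18, KRT8, MCM6, MYBL2, PTTG1, SPHK1 and TYMS), and 18 were in under 5%. For 11 of the 44 (C1QA, CCL4, CD244, CD3D, CDKN2A, EPCAM, ERBB3, FCGR3A, GZMA, IL1RN and LCK), the top 1% of doxorubicin-resistant cells held more than 50% of the gene's UMIs. For 8 of the 47 lower genes (CASP5, CD74, CD86, IL17F, KRT5, PTGDS, RARB and TNF), the same held in treatment-naive cells. The remaining lower genes were PTGDS, prostaglandin D synthase (7 against 151 UMIs), RARB, a retinoic acid receptor (53 against 211 UMIs), LGALS3, galectin 3 (1168 against 4636 CPM, 3.97-fold), MME, the CALLA endopeptidase (13.1 against 156 CPM, 11.9-fold), TLR1, ITGB2, VCAM1, GLI1 and EBF4, the last 4 between 2.04-fold and 2.27-fold. RNASE4, a secreted ribonuclease, was the remaining higher gene (417 against 181 CPM, 2.31-fold).

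**Figure D5:**
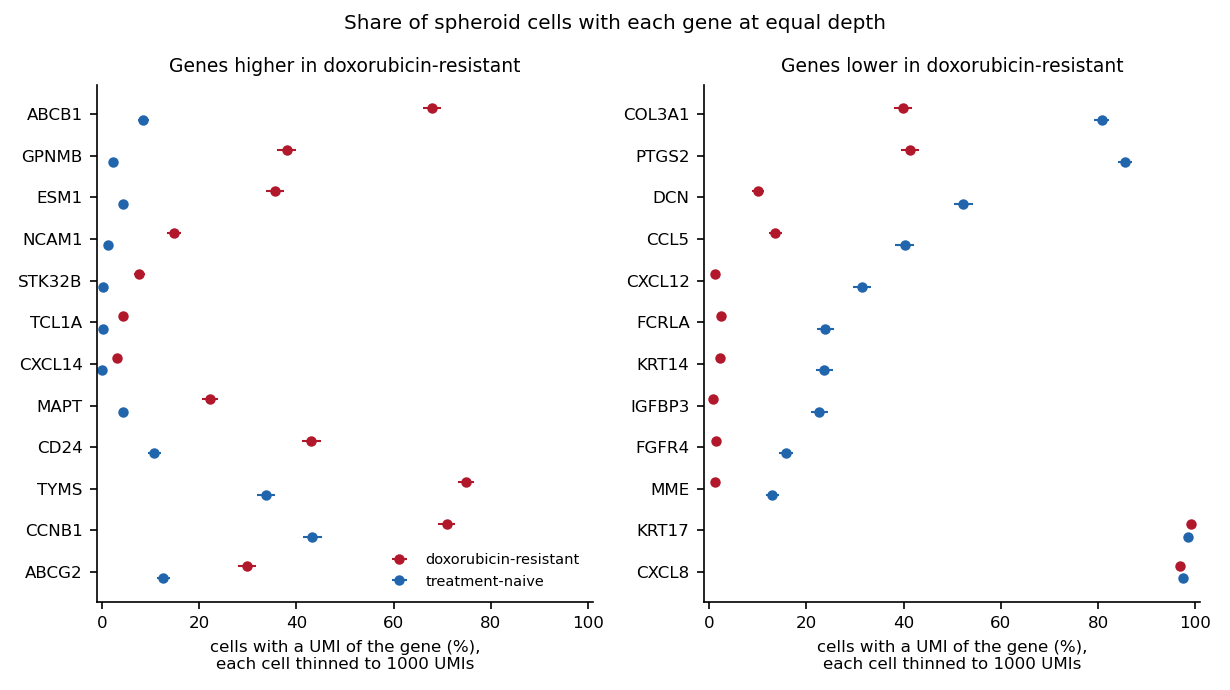
Share of cells (percent, with exact 95% intervals) with at least 1 UMI of 12 higher (left panel) and 12 lower genes (right panel), each cell thinned to 1000 UMIs, red for doxorubicin-resistant and blue for treatment-naive spheroids. ABCB1 was in 67.9% against 8.52% of cells and COL3A1 in 39.8% against 80.8%, whereas KRT17 (99.2% and 98.4%) and CXCL8 (96.9% and 97.5%) were in nearly all cells of both.

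The attached cartridge holds the same comparison in monolayer cells (7032 doxorubicin-resistant and 5305 treatment-naive cells), with no cell in common. There, 24.3% of 268 measured genes were higher and 22.8% lower. Of 251 genes measured in both cultures, 40 were higher in doxorubicin-resistant spheroids and 60 in doxorubicin-resistant attached cells, and 29 were higher in both (72.5% of the spheroid and 48.3% of the attached genes). For lower genes, the counts were 43 and 56, with 33 in both (76.7% and 58.9%). GPNMB was 26.2-fold higher in spheroids and 105-fold higher in attached cells, TCL1A 19.8-fold and 106-fold, and ABCG2 2.64-fold and 10.6-fold. On the lower side, S100A9 differed by 2.76-fold in spheroids and 77.3-fold in attached cells, and IL1B by 2.23-fold and 8.27-fold. UBE2C was 2.61-fold higher in spheroids and 1.18-fold higher in attached cells. PDGFRB was 3.42-fold lower in spheroids and 1.10-fold lower in attached cells, and S100A4 was 2.54-fold lower in spheroids and 1.87-fold higher in attached cells. With 1 population of each kind, these differences between cultures were not tested.

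Paclitaxel-resistant spheroids were read on the same cartridge and are set against the same treatment-naive cells, so the folds below share their denominator. ABCB1 was 26.8-fold higher in doxorubicin-resistant and 15.1-fold higher in paclitaxel-resistant spheroids, and ABCG2 2.64-fold and 2.55-fold. GPNMB was 26.2-fold and 2.73-fold higher, STK32B 29.7-fold and 1.39-fold, and CXCL14 71.3-fold and 1.54-fold. CD24 was 4.20-fold higher in doxorubicin-resistant and 1.51-fold lower in paclitaxel-resistant spheroids. MME was 11.9-fold lower in doxorubicin-resistant and 1.26-fold higher in paclitaxel-resistant spheroids. COL3A1 was 17.6-fold and 4.02-fold lower. Other large differences were shared by both resistant populations. Among cells that matched their own population best, NCAM1 was at 167 CPM in doxorubicin-resistant, 135 CPM in paclitaxel-resistant and 4.74 CPM in treatment-naive spheroids. In the same order, IGFBP3 was at 5.44, 6.23 and 908 CPM, KRT14 at 44.8, 12.9 and 3297 CPM, and CXCL12 at 8.68, 7.08 and 711 CPM. This match left out only ABCB1 and ABCG2. NCAM1, IGFBP3, KRT14 and CXCL12 thus helped to choose these cells, which can itself widen their differences.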

How the data were processed

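The authors labelled each SUM159 population with a sample tag, pooled about 15000 cells per cartridge, and processed the reads into error-corrected molecule (UMI) counts per cell and gene (build hg38). The deposited values are raw UMI counts, with no normalization. The sources used here name no aligner. Each matrix was assigned to a population by the population name in its file name, since the labels do not link tags to files.

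Cells with at least 1000 UMIs were kept (1004 to 22711 UMIs per cell). The barcodes below held 3.57% of doxorubicin-resistant and 4.53% of treatment-naive UMIs. Doublets were not called; leaving out the 1% of cells with most UMIs is 1 of the alternatives. Counts were summed and scaled to CPM. The 2-fold limit and the number 50 come from the study's methods, which used unscaled totals and set the minimum in the resistant state. Here it applies to the population with the higher level, and 38 of the 47 lower genes also had 50 UMIs in doxorubicin-resistant cells. Fold intervals are exact conditional binomial and shares exact Clopper-Pearson, at 95%. A count of 0 was set to 3 counts. Thinning drew 1000 UMIs per cell without replacement. The calculations were tested on simulated data.

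The members and gene lists were chosen with earlier results of these data known. Named are the 15 largest folds in each direction, the 3 highest and 3 lowest members of each of 23 lists, the 5 most abundant genes, list genes within 10% of the limit and ABCB1, ABCG2, UBE2C and SPHK1. The remaining called genes, GSTP1, COL1A1, CCL3, PTPRC, ESR1 and CD8A were named after their values were seen. Of 373 gene names in the files, 363 matched RefSeq. Alternatives changed the cells kept, scaling, cell weights, depth and count minimum. Python 3.11.15, numpy 2.4.6, scipy 1.17.1, pandas 2.3.3 and, for trimmed mean of M-values factors, edgeR 4.0.16 were used. A few genes that the naming rule selects are not reported here.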

Additional observations from a re-analysis of the deposited data

Results flagged for a closer look

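FCGR3A was 17.2-fold higher in doxorubicin-resistant than in treatment-naive spheroids (162 against 10 UMIs), and 4.67-fold lower in doxorubicin-resistant than in treatment-naive attached cells (35 against 119 UMIs). ICOSLG was 3.22-fold higher in doxorubicin-resistant spheroids (655 against 216 UMIs) and 4.91-fold lower in doxorubicin-resistant attached cells (82 against 293 UMIs). TNF was 2.18-fold lower in doxorubicin-resistant spheroids (740 against 1716 UMIs) and 3.28-fold higher in doxorubicin-resistant attached cells (248 against 55 UMIs). These 3 genes passed the size rule in opposite directions in the 2 cultures, and the difference was not tested. ICOSLG was spread over 19.7% of doxorubicin-resistant and 7.74% of treatment-naive spheroid cells, whereas FCGR3A was in 0.391% and 0.164%.

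The barcodes under 1000 UMIs, which no comparison used, carried ABCB1 at 4629 CPM in the 1218 doxorubicin-resistant barcodes, against 1397 CPM in the 1920 treatment-naive barcodes, a 3.31-fold difference (3.03 to 3.62). The same barcodes had 3410.3 against 13062 CPM of COL3A1 and 79.8 against 395 CPM of IGFBP3, so both genes were lower as in the kept cells, by 3.83-fold and 4.95-fold. Over all deposited barcodes together, ABCB1 was 21.7-fold higher.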

How the results depend on the processing

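No paired analysis was possible because each population is 1 tagged part of a pooled sample, without replicate numbers. Between 33 and 58 genes were higher and between 37 and 61 lower under every alternative but the cells with under 2000 UMIs, a stratum chosen after seeing the data with fewer cells and counts, where 20 were higher and 25 lower. Of 77 named genes past the size rule, 36 passed it in all 16 alternatives and 41 left it in at least 1, and 17 other named genes entered it in at least 1. For 44 of the 77, the fold moved by over 1.5 times in at least 1 alternative. Among cells that matched their own population best, 14 folds were that much larger and 2 smaller, although choosing cells by profile can itself widen folds. Without the top cells of each gene 23 were larger and 3 smaller, and in cells with under 2000 UMIs 7 were larger and 20 smaller. Scaling moved the median log2 ratio of all genes from 0.20 to 0.05 with trimmed mean of M-values and to 0.00 with median-of-ratios factors, and under both BRCA1, CEP55, KRT8, KRT18, LCK, MCM6, NDC80 and PTTG1 were under 2-fold higher. Without the 1% of cells with most UMIs of the gene, PTGDS was 3.14-fold and TNF 1.72-fold lower. Among cells with under 2000 UMIs, the ratios of CASP5 (1.65), CD74 (1.45) and CD3D (0.992) changed sides.

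The median log2 ratios of 8 lists changed sign under some alternatives. As reported they were 1.91 for myeloid markers, 0.43 for CDK inhibitors, 0.19 for checkpoint genes and for stem cell markers, 0.10 for B lineage markers, 0.09 for complement, 0.00 for PDGF genes and −0.08 for endothelial markers. In cells with under 2000 UMIs, the log2 medians were −0.23 for CDK inhibitors, −0.30 for PDGF genes and −0.15 for complement. The CDK inhibitors were also at −0.44 in cells of 2000 to under 4000 UMIs, −0.54 after thinning, −0.69 with a minimum of 200 UMIs and −0.68 without the top cells of each gene. With the median-of-ratios factor, the medians were −0.0109 for checkpoint genes, −0.20 for PDGF genes, −0.11 for complement, −0.0113 for stem cell markers and −0.10 for B lineage markers. With trimmed mean of M-values they were −0.15 for PDGF genes, −0.0661 for complement and −0.0584 for B lineage markers, and with unscaled totals −0.0816 for PDGF genes. Among cells that matched their own population, they were −0.0356 for checkpoint genes, −0.00208 for complement and −0.52 for myeloid markers, and myeloid markers were at −0.27 with a minimum of 200 UMIs and −0.19 without the top cells of each gene. B lineage markers were at −0.00343 over all barcodes and −0.12 in cells of at least 4000 UMIs, and endothelial markers at 0.0886 in cells of at least 4000 UMIs and 0.000548 without GAPDH in the totals. The causes were not tested.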
